A study of Homo sapiens with 10 samples.

Results

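The HNRNP and SRSF genes encode 2 families of splicing factors, and their mRNAs were read here as possible neighbours of FAM46C in erythroid cells. Members were all protein-coding genes of GENCODE release 29 whose symbol starts with HNRNP (27 genes) or SRSF (12 genes), 39 of 19940 protein-coding genes. Of these, 31 spanned at least 1 position in the deposited editing tables, beside 10051 genes that did so in the whole series. The 8 members without a position were HNRNPA1P48, HNRNPCL1, HNRNPCL2, HNRNPCL3, HNRNPCL4, HNRNPD, SRSF5 and SRSF12.

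The cells were HUDEP-2, an immortalised human line of erythroid progenitors. Each of 10 cultures carried 1 construct under TRE, a promoter switched on by doxycycline, and gave 1 poly(A) RNA library. The labels give 48 h of doxycycline and the series' own text gives 24 h; the sources used here do not settle this. In every construct a bait protein was joined by a peptide linker to an enzyme that edits nearby RNA. That enzyme was either APOBEC1, a cytidine deaminase whose product is U, or ADARcd, the catalytic domain of ADAR, whose product inosine is sequenced as G. With APOBEC1 the constructs were GFP with a 7 aa (amino acid) linker and FAM46C with 7, 27, 52 or 74 aa linkers. With ADARcd they were GFP with a 7 aa linker and FAM46C with 7, 27, 47 or 74 aa linkers. FAM46C is a non-canonical poly(A) polymerase, which adds A residues to RNA 3′ ends, and GFP serves as the bait with no known RNA partner. The labels do not say whether the cells were clones or pools. Of 15 erythroid marker genes, 8 had a listed position with APOBEC1 and 9 with ADARcd. Of 9 markers of other blood cells 2 and 1 had one, and of 3 non-blood markers 1 and 1.

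HNRNP proteins coat nascent transcripts and often repress the use of nearby splice sites, while SR proteins, with a domain rich in arginine and serine, bind exonic enhancers and recruit the spliceosome. Both kinds regulate their own mRNAs and those of their relatives, often through unproductive splicing of highly conserved exons. In erythroid cells, splicing programmes shift as the cells mature, and these factors take part in that shift.

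The positions on which the results turn lay in 3′ UTRs, in the last exon of the transcript. The windows below are given 5′ to 3′ on the gene's strand, with coordinates on GRCh38 and bases from the GENCODE transcripts, and the edited base is in capitals. The first 6 are edited by APOBEC1. SRSF1, SRSF2, HNRNPA0 and HNRNPR at 312 nt are shown because their GFP share lay above that of every FAM46C fusion, and HNRNPM and HNRNPUL1 because their highest share came with the 7 aa fusion. Each is the position with the lowest p of its gene, except HNRNPM and this HNRNPR position, which were chosen after their values were seen. The last one, HNRNPA3, is edited by ADARcd.
SRSF1, chr17:58004312-58004336, minus strand, exon 3 of 3, 964 nt from the transcript's end: tttagttttagaCttaggtgggtag
SRSF2, chr17:76734925-76734949, minus strand, exon 2 of 2, 822 nt from the end: tgaggtgaacgaCttcagatttcat
HNRNPA0, chr5:137752507-137752531, minus strand, exon 1 of 1, 6868 nt from the end: tcttgatgtgtaCttagagaaactt
HNRNPR, chr1:23310086-23310110, minus strand, exon 11 of 11, 312 nt from the end: tgggatagattaCataggagtatgg
HNRNPM, chr19:8489074-8489098, plus strand, exon 16 of 16, 28 nt from the end: catcgaatatgaCtttgataataaa
HNRNPUL1, chr19:41307352-41307376, plus strand, exon 15 of 15, 12 nt from the end: gtgactattgaaCttgaaacctttt
HNRNPA3, chr2:177221560-177221584, plus strand, exon 11 of 11, 2386 nt from the end: gacctgtttataAgttgtattagct

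All 6 of the APOBEC1 windows have an A directly before the edited C, a base that APOBEC1 is known to favour. Among the 133 member positions in 3′ UTRs with known neighbours, 116 (87.2%) had A before the C and 16 had T; in the 3′ UTRs of all other genes 78.1% had A. The base after the C was T at 61.7% of member positions and 51.2% of the others. A and T together made up 70.5% of the 24 flanking bases in members and 68.2% in the others, so member windows were close to the average 3′ UTR window in base composition.

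APOBEC1 positions in these genes lay nearly all in 3′ UTRs. Of 140 positions given to a member, 134 (95.7%) were in a 3′ UTR, 3 in coding sequence, 2 in an intron and 1 in a 5′ UTR. Over all genes the 3′ UTR held 62.4% of positions and the coding sequence 26.3%. Another gene also spanned 27 of the 144 positions in member bodies, among them all those of SRSF1, SRSF2, SRSF9, HNRNPA1 and HNRNPAB and 7 of 8 in HNRNPL. The labels state no strand, so reads of overlapping genes cannot be told apart. HNRNPA1L2 is a near-identical copy of HNRNPA1, and how reads were divided between the copies is not known, so both are uncertain. HNRNPH3 with 18 positions and SRSF10 with 13 had the most. SRSF1 and SRSF6 had 1 each, and HNRNPUL2-BSCL2, a read-through gene, had none of its own.

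A share is the percentage of reads with the edited base, added over a gene's positions that had a read in all 5 libraries of the deaminase. This left 139 APOBEC1 positions in 29 members, with a median of 45 to 56 reads per position in the 5 libraries. There are no replicates. Each fusion was set against the GFP library of its deaminase by a two-sided Fisher's exact test of reads, adjusted by Benjamini-Hochberg over all genes, with a call at an adjusted p under 0.05. This compares 2 libraries, not the conditions, and intervals are 95% Wilson intervals that cover counting error only. The 4 fusions of a deaminase share 1 GFP library, so their differences from it are not independent, and only the 7 aa pair has the same linker in both arms.

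The 74 aa fusion gave most of the calls among members, all of them lower than GFP, and shorter linkers gave few. Of 29 members, 12 were called lower with the 74 aa fusion and 0 higher, where 5.16% and 0.0956% of all 5228 genes were called. With the 7 aa fusion 1 member (HNRNPM) was called higher and 2 (SRSF1 and HNRNPA0) lower, beside 3.75% and 0.842% of all genes. The 27 aa fusion had 0 higher and 3 lower (HNRNPR, SRSF1 and HNRNPA0), beside 1.47% and 1.3%. For 52 aa the counts were 0 and 2 (HNRNPR and SRSF1), beside 1.03% and 0.899%. At an unadjusted p under 0.05 the numbers of members, in either direction, were 10, 5, 8 and 15 for 7, 27, 52 and 74 aa, where 12.9%, 9.91%, 8.68% and 11.6% of all genes passed.

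These shares stand beside a general drop in the 74 aa library. Over all positions it had 1.24% edited reads, against 2.91% with GFP, 4.18% with 7 aa, 3.05% with 27 aa and 2.93% with 52 aa. Tested against the overall odds ratio of the 74 aa and GFP libraries (0.402) in place of no difference, 2 members were called lower, HNRNPH3 and HNRNPR, and 0 higher, where 0.44% and 0.516% of all genes were. The same test with 7 aa (overall odds ratio 1.48) called no member higher and 5 lower, HNRNPR, SRSF1, SRSF2, HNRNPA0 and SRSF10, beside 1.36% and 1.86% of all genes. With 27 aa (1.06) it called 0 higher and 4 lower, HNRNPR, SRSF1, HNRNPA0 and SRSF10, beside 1.34% and 1.51%, and with 52 aa (1.02) 0 higher and 2 lower, HNRNPR and SRSF1, beside 1.03% and 0.956%. Each odds ratio was taken over all positions, whatever their region or distance from the transcript's end. In other genes the ratio of 7 aa to GFP was lower far from the end than near it, as given below. The test does not allow for this, and HNRNPR, SRSF2 and SRSF10 had no call with 7 aa in the plain test.

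Members also carried more edited reads in GFP than most genes, a median of 8 against 2 per gene, which makes a lower share easier to call. Among genes with at least 10 edited GFP reads, 12 of 13 members (92.3%) and 254 of all 465 genes (54.6%) were called lower with 74 aa. With 7, 27 and 52 aa 2, 3 and 2 of the 13 were, beside 9.03%, 14.4% and 10.1% of the 465. Called higher were 1, 0, 0 and 0 with 7, 27, 52 and 74 aa, beside 13.3%, 6.02%, 4.95% and 0.430%. This filter uses the edited GFP reads that enter the test itself. It therefore favours lower calls and disfavours higher ones in advance, in members and in all genes, and these shares are a description only.

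**Figure D1:**
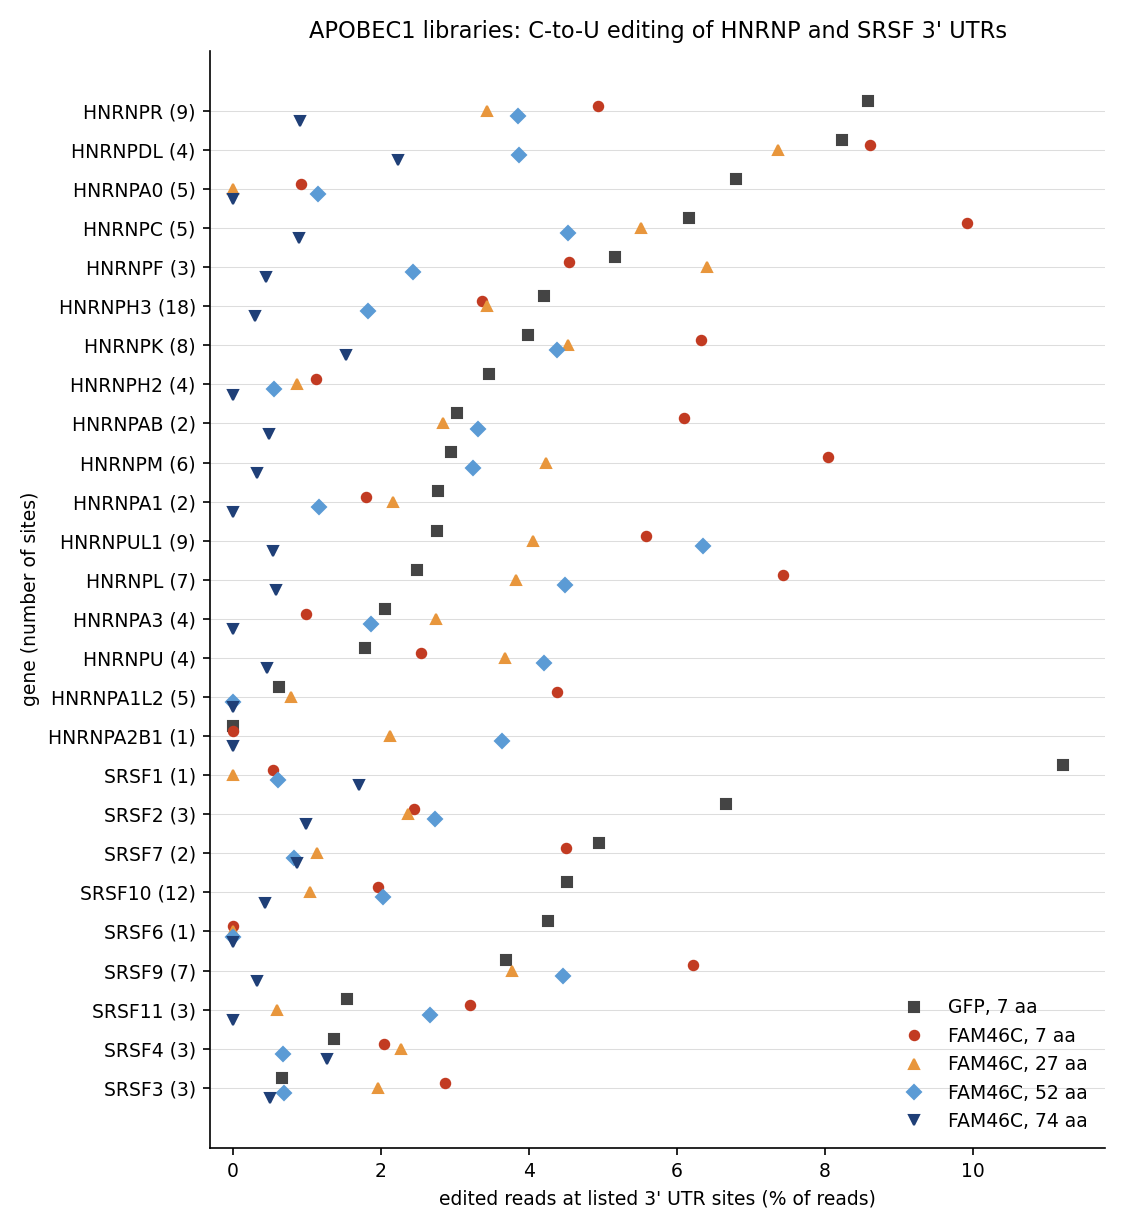
Percentage of edited reads over each gene's listed 3′ UTR positions (x axis) in the 5 APOBEC1 libraries (symbols), for the 26 of 29 members with at least 40 reads in the GFP library; the number of positions follows each symbol. The 74 aa symbols sit at the left for most genes, and SRSF1 stands out by a GFP share of 11.2% with all fusions at 1.70% or below.

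Among HNRNP genes, HNRNPR showed the clearest difference from GFP. HNRNPR, a close relative of SYNCRIP that binds mRNA in nucleus and cytoplasm, had 9 positions, all in its 3′ UTR, and edited shares of 8.59% with GFP (58 of 675 reads), 4.94% with 7 aa, 3.44% with 27 aa, 3.86% with 52 aa and 0.911% with 74 aa (8 of 878). The GFP library was the highest and the 74 aa library the lowest. The adjusted p was 0.103 with 7 aa, 0.00744 with 27 aa, 0.0143 with 52 aa and 1.67e-11 with 74 aa. Against the overall odds ratio all 4 fusions were below it, with adjusted p of 0.000378, 0.00329, 0.00991 and 0.00849 in the same order. The plain 7 aa difference had 0.0349 without positions whose highest library held exactly 2 edited reads, an alternative chosen after seeing the data.

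The pair of HNRNPR positions with the most edited GFP reads lie close together, and the order of the libraries was not the same at both. At 312 nt from the end, 17 of 100 GFP reads were edited (17.0%), and the 7, 27, 52 and 74 aa fusions had 4.20%, 4.04%, 4.30% and 2.54%. There all 4 fusions lay near each other, each with its upper bound below the lower bound of GFP (10.9%). At 278 nt it was 17.6% with GFP (15 of 85), 13.4%, 8.64%, 12.5% and 0.917% (1 of 109), and the only call among single positions was with 74 aa (adjusted p 0.0338 over all positions).

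HNRNPC forms tetramers that bind uridine tracts and measure out nascent transcripts. It had shares of 6.17% with GFP (35 of 567), 9.93% with 7 aa, 5.51% with 27 aa, 4.53% with 52 aa and 0.894% with 74 aa (5 of 559). Only the 74 aa difference was called, with an adjusted p of 6.86e-05. Without its most edited position the adjusted p was 0.779.

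HNRNPM, which binds GU-rich sequence and regulates alternative exons, was the only member called higher with any fusion. Its shares were 2.96% with GFP (17 of 575), 8.05% with 7 aa (43 of 534), 4.24% with 27 aa, 3.25% with 52 aa and 0.323% with 74 aa (2 of 619). The 7 aa library was above all others, with an adjusted p of 0.0063, and 0.265 against the overall odds ratio. All 6 positions were in the 3′ UTR. The one at 99 nt from the end had the lowest p, in the comparison of 74 aa with GFP and not of 7 aa. It had 8 of 116 GFP reads edited, 14 of 108 with 7 aa, 4 of 84, 7 of 140 and 0 of 125 with 27, 52 and 74 aa. The one at 28 nt from the end had 1 of 58 GFP reads edited and 9 of 54 with 7 aa (1.72% and 16.7%), then 2.70%, 1.33% and 0% (of 71 reads, which allows up to 4.23%) with 27, 52 and 74 aa; its adjusted p over all positions was 0.638 with 7 aa. With 74 aa HNRNPM was called lower (0.00737), and not without its most edited position (0.320).

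HNRNPUL1, an HNRNPU-like protein that takes part in the response to DNA breaks, had its higher shares in the 52 and 7 aa libraries. The values were 2.76% with GFP (18 of 652), 5.58% with 7 aa (46 of 824), 4.06% with 27 aa, 6.35% with 52 aa (43 of 677) and 0.550% with 74 aa. Only the 74 aa difference was called (adjusted p 0.0234, and 0.0566 without the most edited position); the 52 aa difference had 0.0922. Without positions at 2 edited reads, as above, the 52 aa difference had 0.0462. At 12 nt from the end, 1.74% of GFP reads were edited and 10.7%, 6.45%, 7.83% and 0% (of 125 reads, up to 2.40%) of those with 7, 27, 52 and 74 aa. Its paralogue HNRNPU, an abundant chromatin-bound protein, had 1.79% with GFP, 2.55%, 3.68% and 4.21% with 7, 27 and 52 aa, and 0.469% with 74 aa, with no call.

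The A/B group, to which the classic exon-skipping factor HNRNPA1 belongs, was uneven. HNRNPA0, an intronless gene whose product binds AU-rich elements, had 17 of 250 GFP reads edited (6.80%), and 0.926% with 7 aa, 0% of 166 reads with 27 aa (up to 1.81%), 1.15% with 52 aa and 0% of 201 reads with 74 aa (up to 1.49%). All 4 fusions were below GFP, with adjusted p of 0.0354, 0.0104, 0.190 and 0.00213 for 7, 27, 52 and 74 aa. Its 5 positions lie 6498 to 6901 nt from the annotated end. The one at 6868 nt had 9.68% of reads edited with GFP, 2.33% with 52 aa and none with the other fusions. Where GFP alone reaches 2 edited reads, a lower fusion share is favoured in advance, and here only GFP and 52 aa had any. Without its most edited one the 7 and 27 aa differences had an adjusted p of 0.264 and 0.108. HNRNPDL, a relative of HNRNPD (AUF1), had 7.76% with GFP, 8.24% with 7 aa, 7.37% with 27 aa, 3.72% with 52 aa and 2.15% with 74 aa, and was called lower with 74 aa (0.00545). HNRNPA1L2 had 0.633% with GFP and 4.39% with 7 aa, and HNRNPA2B1 had edited reads with 27 and 52 aa only (2.13% and 3.64% at 1 position). HNRNPA1, HNRNPA3 and HNRNPAB had 2.78%, 2.06% and 3.03% with GFP, and none of these 5 had a call.

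The H and F proteins bind runs of G. HNRNPH3 had 18 positions, with 4.21% with GFP (36 of 856), 3.37% with 7 aa, 3.44% with 27 aa, 1.82% with 52 aa and 0.307% with 74 aa (3 of 977). It was called lower with 74 aa (adjusted p 3.44e-07, and 0.0460 against the overall odds ratio). Its 52 aa difference had 0.0427 without the most edited position, and 0.120 with it. HNRNPF had 4.82%, 5.05%, 5.65%, 2.22% and 0.418% in the same order and was called lower with 74 aa (0.0481), a call carried by the position at 497 nt, without which no edited read was left in either library.

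HNRNPH2, HNRNPK and HNRNPL were not called over the whole gene. Of these HNRNPH2 had 3.46% with GFP and 0% of 235 reads with 74 aa (up to 1.28%, adjusted p 0.0624), while HNRNPK, a KH-domain protein that binds C-rich RNA, had 3.99%, 6.32%, 4.53%, 4.38% and 1.54% in the 5 libraries in the order above (0.0827 with 74 aa). Within 3′ UTRs alone both were called lower with 74 aa (0.0369 and 0.0496). HNRNPL, which binds CA repeats, had 2.49% with GFP, 7.43% with 7 aa, 3.83% with 27 aa, 4.49% with 52 aa and 0.588% with 74 aa (0.101 with 7 aa).

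Within the SR family, SRSF1 had the largest gap to GFP. SRSF1, the founding SR protein, which binds purine-rich enhancers and also acts in export and translation of mRNA, had 1 position, at 964 nt from the end of its 3′ UTR. There 22 of 196 GFP reads were edited (11.2%, interval 7.53 to 16.4%), against 1 of 181 with 7 aa (0.552%), 0 of 165 with 27 aa (up to 1.82%), 1 of 164 with 52 aa (0.610%) and 3 of 176 with 74 aa (1.70%). No fusion's interval reached that of GFP, the highest upper bound being 4.89% with 74 aa. Over all genes the adjusted p was 0.000322, 0.000197, 0.00196 and 0.00732 for 7, 27, 52 and 74 aa, and over all single positions 0.00248, 0.00240, 0.0222 and 0.177. Against the overall odds ratio the gene stayed lower with 7, 27 and 52 aa (8.92e-06, 8.99e-05 and 0.00183) and not with 74 aa (0.704). Another gene, AC015813.2, spans the same position.

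SRSF2 (SC35), a nuclear SR protein known for recurrent mutations in myeloid disease, had 6.67% with GFP (22 of 330), 2.45% with 7 aa, 2.37% with 27 aa, 2.74% with 52 aa and 0.997% with 74 aa. The 4 fusions were close to each other and below GFP. Only 74 aa was called (adjusted p 0.00544, and 0.262 without the most edited position), and 27 aa had 0.0336 without positions at 2 edited reads and 0.235 with them. At 822 nt from the end 13 of 178 GFP reads were edited (7.30%), against 2.26%, 1.16%, 3.51% and 1.17%.

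SRSF10, which turns into a splicing repressor when dephosphorylated under heat shock, had 4.37% with GFP (21 of 481) and 1.76%, 0.948%, 1.86% and 0.402% with 7, 27, 52 and 74 aa. The order was the same as for SRSF2, with GFP highest. It was called lower with 74 aa (0.00107, and 0.0721 without positions that had at most 2 edited reads in their highest library).

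SRSF9, a short SR protein similar to SRSF1, differed from these. Its shares were 3.69% with GFP (15 of 406), 6.22% with 7 aa (45 of 724), 3.77% with 27 aa, 4.47% with 52 aa and 0.334% with 74 aa (2 of 599), and it was called lower with 74 aa alone (0.00229). The remaining SR genes with positions, SRSF3, SRSF4, SRSF6, SRSF7 and SRSF11, had between 0.662% (SRSF3) and 4.95% (SRSF7) with GFP, at most 5 edited GFP reads each, and no call.

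**Figure D2:**
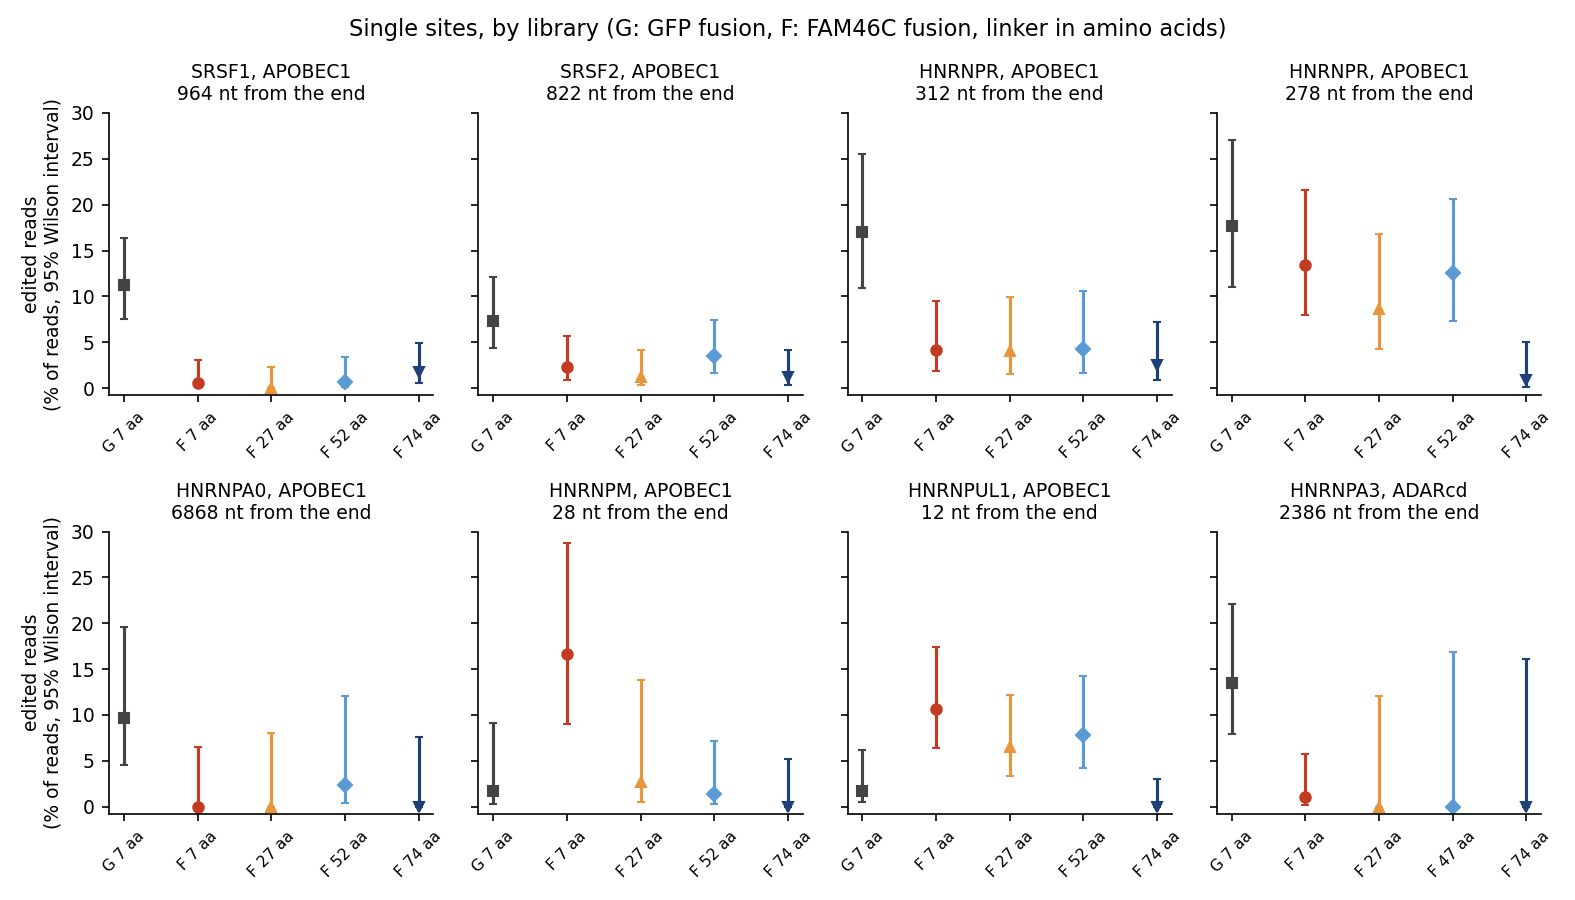
Percentage of edited reads (y axis, with 95% Wilson intervals) at 8 single 3′ UTR positions in the GFP library (G) and the FAM46C libraries (F) of the deaminase named, by linker length. SRSF1, SRSF2, HNRNPA0 and HNRNPR at 312 nt have GFP above all fusions, HNRNPR at 278 nt differs mainly with 74 aa, and HNRNPM and HNRNPUL1 are highest with the 7 aa fusion.

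Among the positions reported here, those of SRSF1 (7, 27 and 52 aa) and HNRNPR (74 aa) were called, all lower. Of 16900 positions in all genes, 0.0118%, 0.00592%, 0.0118% and 0.0533% were called lower with 7, 27, 52 and 74 aa. No member position was called higher by the adjusted test, beside 0.385%, 0.118%, 0.0888% and 0.00592% of all positions. At an unadjusted one-sided p up to 0.05, 7, 1, 5 and 0 of the 139 member positions were higher with 7, 27, 52 and 74 aa, where 3.05%, 1.51%, 1.22% and 0.172% of all positions were.

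Restricted to 3′ UTRs, members called higher and lower were 1 and 2 with 7 aa, 0 and 3 with 27 aa, 0 and 2 with 52 aa and 0 and 14 with 74 aa. The background over 3018 genes with such positions was 7.42% and 1.79%, 2.82% and 2.72%, 2.22% and 1.82%, and 0.133% and 10.1%. The median difference from GFP over the 29 members was 0.377 percentage points with 7 aa, 0 with 27 aa, -0.633 with 52 aa and -2.63 with 74 aa. Over all genes those medians were 1.19, 0, 0 and -1.52. Over whole genes, not 3′ UTRs alone, the medians of all genes were 0 with 7 aa and -0.111 with 74 aa. The odds ratios used next are those over all regions, and none was computed for 3′ UTRs. Against the overall odds ratio the 3′ UTR counts were 0 and 5 with 7 aa (background 3.02% and 3.84%) and 0 and 2 with 74 aa (0.663% and 0.828%).

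Outside 3′ UTRs HNRNPDL, HNRNPLL and SRSF10 each had 1 coding position, HNRNPF 1 in the 5′ UTR and HNRNPH1 1 in an intron, with at most 2 edited reads in any library except in HNRNPH1 (4). None of the 3 coding members was called with any fusion, nor passed an unadjusted p under 0.05 in Fisher's exact test. Of 2883 genes, 0.104%, 0.0694%, 0.0347% and 0.0347% were called higher there with 7, 27, 52 and 74 aa and 0% lower. HNRNPH1 was not called in its intron either, where 1.21% of 248 genes were called higher with 7 aa, 0.806% lower with 74 aa and 0% otherwise.

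Added over genes, both families had higher shares than all other genes with GFP and lower ones with the 74 aa fusion. The positions added were unlike: 95.7% of member positions and 62.4% of all positions lay in 3′ UTRs. The highest library had exactly 2 edited reads at 42.4% and 71.2% of those used. In 3′ UTRs alone, the median GFP share of genes with at least 20 reads was 3.03% for HNRNP and 4.26% for SRSF. For the other genes it was 2.34% to 2.38%, depending on the fusion compared. HNRNP shares over the whole gene (103 positions, 20 genes) were 4.43% with GFP, 5.28% with 7 aa, 3.84% with 27 aa, 3.45% with 52 aa and 0.671% with 74 aa. SRSF shares (36 positions, 9 genes) were 4.53%, 3.44%, 2.05%, 2.43% and 0.602%. All other genes had 2.78%, 4.07%, 2.95%, 2.84% and 1.15%.

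As ratios to GFP, the HNRNP family stood at 1.19 (interval 1.03 to 1.38), 0.866 (0.731 to 1.03), 0.779 (0.659 to 0.921) and 0.152 (0.112 to 0.205) for 7, 27, 52 and 74 aa. The SRSF family stood at 0.758 (0.566 to 1.01), 0.452 (0.316 to 0.645), 0.537 (0.385 to 0.748) and 0.133 (0.0760 to 0.232). For all other genes the ratios were 1.46, 1.06, 1.02 and 0.415. With reads added, each family's ratio was below that of the other genes with every fusion, and no interval of the members reached the ratio of the others. Medians over genes with at least 20 reads, computed for the other genes after seeing the data, differed from this. By them a lower ratio did not hold for HNRNP with 27, 52 and 74 aa, nor for SRSF with 74 aa. The HNRNP ratios were then 1.45, 1.14 and 1.07 with 7, 27 and 52 aa, and those of the other genes 1.55, 0.903 and 0.699. The HNRNP ratios with 27 and 52 aa were then above 1 and above those of the other genes. SRSF medians gave 0.575, 0.267 and 0.196, below the other genes in all 3. With 74 aa the median ratios were 0.107 and 0.120 in the HNRNP and SRSF families, and the median share of the other genes was 0%. Without SRSF9, which has the most edited reads, the SRSF ratios were 0.465, 0.274 and 0.357 for 7, 27 and 52 aa.

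**Figure D3:**
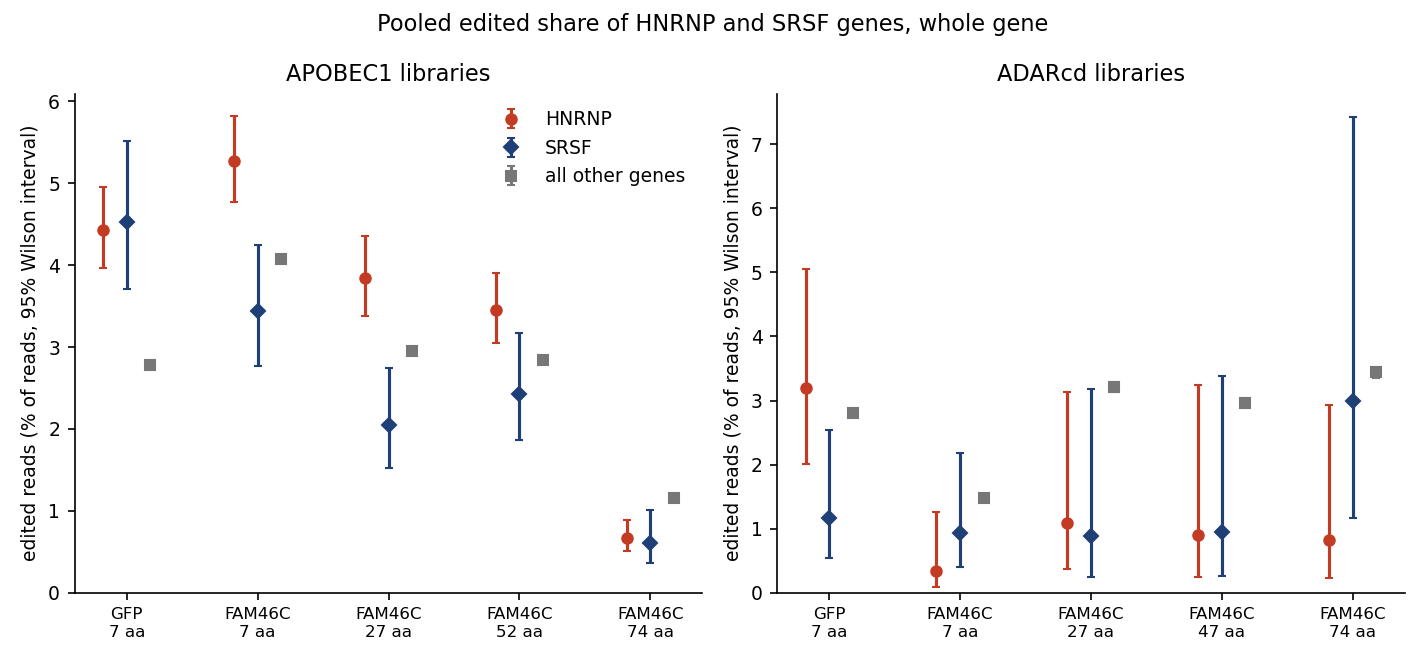
Percentage of edited reads added over all positions of the HNRNP genes, the SRSF genes and all other genes (y axis, 95% Wilson intervals) in the 5 libraries of each deaminase (x axis). With APOBEC1 both families lie above the other genes with GFP (4.43% and 4.53% against 2.78%) and below them with the 74 aa fusion (0.671% and 0.602% against 1.15%). Of the APOBEC1 positions, 95.7% in members and 62.4% over all genes lie in 3′ UTRs.

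In the order of libraries, 11 of 29 members had all 4 fusions below GFP (37.9%, beside 26.0% of all genes), and none had all 4 above it (4.71% of all genes). The 74 aa library was the lowest, alone or tied, for 26 of 29 members, 11 of them with no edited read in it. Either GFP or the 7 aa fusion was the highest in 22 members, 11 each. These counts of lowest and highest libraries were not made over all genes. Below GFP with 74 aa were 89.7% of members and 50.8% of all genes.

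With the 7 aa fusion, member positions above GFP lay nearer the transcript's annotated end than those below it. Within 3′ UTRs the 69 positions above GFP lay a median of 213 nt from the end, and the 51 below it a median of 822 nt. Of 59 positions less than 300 nt from the end 41 were above GFP and 13 below, and of 75 at 300 nt or more 28 were above and 38 below. The 27 aa fusion had 29 above and 21 below nearer the end and 21 and 46 farther out. With 52 aa the counts near the end were even, 25 above and 24 below, beside 16 and 47 farther out, and with 74 aa they were 5 and 37, beside 3 and 55. These bins were chosen after the data were seen and serve as a description. Of the 139 member positions used, 28 had at least 2 edited reads in the GFP library alone. In the 7, 27, 52 or 74 aa library alone, 25, 14, 9 and 1 did. At such positions the direction is favoured in advance, below GFP for the former and above it for the latter with that fusion. Their split by distance was not counted, and the counts above and below GFP were not made for other genes. Positions in 1 gene share its reads, those of HNRNPUL1 and SRSF10 fall on transcripts with different annotated ends, and the end used by the cell was not measured.

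Pooled by distance, member shares with GFP were 3.61% at under 100 nt, 3.19% from 100 to under 300 nt, 6.34% from 300 to under 1000 nt and 4.23% at 1000 nt or more. With the 7 aa fusion they were 7.56%, 5.38%, 4.03% and 3.62%, highest next to the end. The ratio of 7 aa to GFP was 2.09 (1.50 to 2.91), 1.69 (1.28 to 2.22), 0.636 (0.504 to 0.802) and 0.856 (0.639 to 1.15) from the nearest bin to the farthest. All other genes had ratios of 3.51, 2.10, 1.21 and 1.09. The members lay lower in each range, and their ratio was higher again in the farthest range, where that of the other genes was lowest.

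With the 27 and 52 aa fusions members showed little excess near the end: 3.86% and 3.93% within 100 nt, ratios of 1.07 (0.725 to 1.58) and 1.09 (0.755 to 1.56) to GFP. In all other genes the same bin had ratios of 2.39 and 2.16. With 74 aa only 3 of 1457 member reads within 100 nt were edited (0.206%), a ratio of 0.0570 (0.0178 to 0.182), beside 0.628 in all other genes. Farther out, from 300 to under 1000 nt, member ratios were 0.554, 0.495 and 0.153 with 27, 52 and 74 aa, and 0.860, 0.853 and 0.301 in the others.

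**Figure D4:**
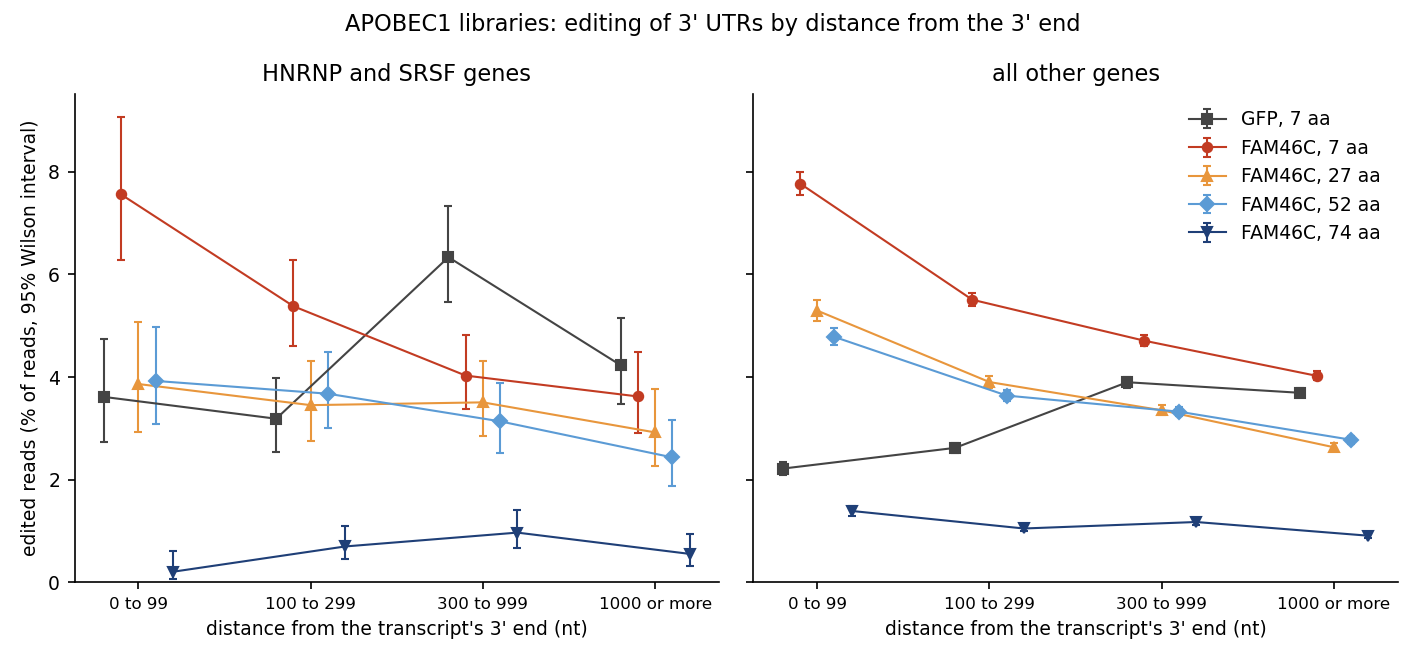
Percentage of edited reads at 3′ UTR positions (y axis, 95% Wilson intervals) in 4 ranges of distance from the annotated transcript end (x axis, nt), for HNRNP and SRSF genes (left) and all other genes (right) in the APOBEC1 libraries. The 7 aa fusion is highest next to the end in both, and the GFP share of the members peaks at 6.34% from 300 to under 1000 nt.

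The families differed by range. HNRNP positions within 100 nt went from 3.71% with GFP to 8.46% with 7 aa (ratio 2.28, 1.61 to 3.24), and at 1000 nt or more from 5.14% to 3.92%. SRSF positions from 300 to under 1000 nt had 7.56% with GFP (44 of 582 reads) and 0.845%, 0.808%, 1.60% and 1.43% with 7, 27, 52 and 74 aa; the 1 position of SRSF1 gave 22 of those 44 reads and the position of SRSF2 at 822 nt gave 13. At 1000 nt or more SRSF positions had 2.49% with GFP and 3.05% with 7 aa, a ratio of 1.23 (0.674 to 2.23), on the other side of 1 from the HNRNP ratio of 0.763 (0.544 to 1.07) and above the 1.09 of the other genes. Nearer the end the SRSF ratios with 7 aa were 1.41 (0.506 to 3.94) within 100 nt and 1.25 (0.762 to 2.06) from 100 to under 300 nt.

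Other genes of the splicing machinery, a list of 88 with core spliceosome subunits, SR kinases and further RNA-binding regulators, were counted in the same way. Of 64 tested with APOBEC1, 4 were called higher and 4 lower with 7 aa, 1 and 6 with 27 aa, 0 and 3 with 52 aa and 0 and 10 with 74 aa, beside 3.75% and 0.842%, 1.47% and 1.3%, 1.03% and 0.899%, and 0.0956% and 5.16% of all genes. Against the overall odds ratio the counts were 1 and 5, 1 and 6, 0 and 3, and 0 and 0, so all 10 calls with 74 aa were lost. Their pooled share was 3.12% with GFP and 3.63%, 2.33%, 2.17% and 0.730% with the fusions. Called lower with at least 2 fusions were QKI, MBNL1, TNPO1 (the import receptor of HNRNPA1), RBM3, SYNCRIP and U2AF2 (the large subunit of the factor that binds polypyrimidine tracts). MBNL1 had 4.20% with GFP and 1.03%, 0.145% and 0.466% with 7, 27 and 74 aa, and QKI had 10.2% and 1.29%, 0.319% and 0.595%. SNRPG, an Sm ring subunit of the snRNPs, was the only one called higher with 2 fusions, at 1.37% with GFP, 8.82% with 7 aa and 7.23% with 27 aa. With ADARcd, 37 of the list were tested, and 3 were called lower with 7 aa and 1 with 27 aa (1 and 1 against the overall odds ratio), beside 3.1% and 0.401% of all genes. DDX17, an RNA helicase, was called with both, at 14.6% with GFP, 0.971% with 7 aa and 1.55% with 27 aa.

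With ADARcd the members gave little to compare. Of 28 positions in 13 member bodies, 26 were given to a member, 18 of them in introns (69.2%, beside 51.8% over all genes), and 9 positions in 8 members had a read in all 5 libraries. The reads at those 9 were 1044 with GFP, 1109 with 7 aa and 502, 432 and 379 with 27, 47 and 74 aa. HNRNPA3 was called lower with 7 aa, the only call among members; 3.1% of 3994 genes were called lower and 0.0501% higher there. With 27, 47 and 74 aa no member was called by Fisher's exact test, beside 0.451% and 0.401%, 0.25% and 0.325%, and 0.376% and 0.175% of genes called higher and lower, and 1 member in each passed an unadjusted p under 0.05, as did 7.19%, 8.99% and 7.91% of genes (1 member and 8.24% with 7 aa).

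HNRNPA3, a member of the A/B group, had 2 positions in its 3′ UTR and 15 of 296 GFP reads edited (5.07%). The fusions had 1 of 303 with 7 aa (0.330%), 1 of 136 with 27 aa, 0 of 107 with 47 aa and 2 of 96 with 74 aa. The adjusted p with 7 aa was 0.00927, and 0.406 against the overall odds ratio of 0.518 of the 7 aa and GFP libraries. The position at 2386 nt carried the call, with 12 of 89 GFP reads edited (13.5%), 1 of 95 with 7 aa, and 0 of 28, 0 of 19 and 0 of 20 with 27, 47 and 74 aa, counts that allow up to 10.7%, 15.8% and 15.0%. Without it the adjusted p was 0.876. Only the GFP library had at least 2 edited reads at that position. That was so at 4 of the 9 member positions used (44.4%, beside 26.3% of all positions used). Where GFP alone reaches 2 edited reads, a lower fusion share is favoured in advance.

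SRSF9 was the 1 member above GFP with all 4 ADARcd fusions, at 229 nt from its end: 2 of 196 reads with GFP (1.02%), then 5 of 204, 2 of 82, 2 of 64 and 2 of 52 (2.45%, 2.44%, 3.12% and 3.85%), no difference being called. SRSF11, SRSF8, HNRNPU and HNRNPLL each had 1 coding position with at most 2 edited reads in any library, and the 1 position of HNRNPH3 has a T as its reference base on the gene's strand, not the A that ADARcd edits.

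Intronic ADARcd positions rested on very few reads. Over all 18, including those without a read in some library, 28 of 66 GFP reads and 16 of 81 reads with 7 aa were edited, against 0 of 8, 1 of 6 and 0 of 6 with 27, 47 and 74 aa. SRSF4, a longer SR protein, held 6 of them and HNRNPF 5. Their reference bases could not be read from the transcripts, so whether they are A was not tested. Of the 28 positions in member bodies, 9 had a share of 40% or more over the 5 libraries together. These 9 lay in introns, and none was among the positions used. The source of such high shares was not tested.

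In 3′ UTRs with ADARcd 1 of 3 members was called lower with 7 aa, HNRNPA3 again (adjusted p 0.00413), beside 8.25% of 1054 genes. The counts with 27, 47 and 74 aa were 0 and 0, beside 1.33% and 0.759%, 0.569% and 0.759%, and 0.949% and 0.0949% of genes called higher and lower; the 7 aa background for higher was 0.0949%. Against the overall odds ratio 0 members were called with 7 aa, beside 0.25% and 0.801% over whole genes and 1.04% and 2.28% in 3′ UTRs. No single member position was called with ADARcd, where 0% and 1.14%, 0.124% and 0.161%, 0.0124% and 0.111%, and 0.0247% and 0.0371% of 8089 positions were called higher and lower with 7, 27, 47 and 74 aa. At an unadjusted one-sided p up to 0.05, 0, 0, 0 and 1 member positions were higher, beside 0.309%, 2.71%, 4.41% and 4.41% of all positions.

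Pooled ADARcd shares of the HNRNP genes were 3.20% with GFP and 0.347%, 1.08%, 0.905% and 0.816% with 7, 27, 47 and 74 aa, and those of the SRSF genes were 1.17%, 0.938%, 0.889%, 0.948% and 2.99%. All other genes had 2.81%, 1.48%, 3.21%, 2.96% and 3.44%. The HNRNP values rested on 2 or 3 edited reads in each fusion library, and without HNRNPA3 the 27 and 47 aa ratios to GFP turned from 0.339 and 0.283 to 1.67 and 2.07. The 27 aa ratio without HNRNPA3 rested on the HNRNPH3 position (2 of 42 reads), whose reference base is T.

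The authors' deposited tables give genes and positions per fusion with a p-value, and every member position in them had a higher share with that fusion than with GFP. Members in the authors' deposited tables numbered 6 with the 7 aa APOBEC1 fusion, 1 with 27 aa, 3 with 52 aa and 0 with 74 aa, where 6.37%, 3.39%, 2.83% and 0.440% of tested genes were listed. HNRNPUL1, HNRNPK and SRSF9 appear in the authors' deposited table for both 7 and 52 aa. The lowest p of a member in the authors' deposited tables was 0.00405, for HNRNPUL1 at 12 nt from the end with 7 aa. With ADARcd the authors' deposited tables held 1 member, SRSF11 with 74 aa (p 0.0341, from 2 edited reads of 56 against 0 of 245 with GFP).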

How the data were processed

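Poly(A) RNA of 10 HUDEP-2 cultures, 1 per construct, was sequenced. Picard 2.27.1, SAMtools 1.18, HISAT2 2.2.1 and the build GRCh38 are named per the submitters' processing notes; neither their settings nor the rule that chose positions is stated there or in the labels. The authors deposited, per library, counts of reads with the reference and with the edited base at each position, not normalised, and per fusion a table with a p-value per position; 48 further per-sample columns of those tables were not used. Totals over all listed positions were 627250 to 748913 reads per APOBEC1 library and 160157 to 522608 per ADARcd library, the precision being that of the intervals given.

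From the counts, positions were placed with GENCODE release 29 basic transcripts, preferring exons with the target base on the gene's strand, then protein-coding genes, 1 gene per position. Distance was counted in exonic nucleotides up to the annotated transcript end. Tests used Python 3.11.15 with scipy 1.17.1, checked on simulated data. The members, lists and tests were chosen with earlier results of these data known. Named were members called for at least 1 fusion, per deaminase the 10 with the most GFP reads, their positions with the lowest p, and other splicing genes called for at least 2 fusions. Alternatives were all positions, at least 10 reads in all 5 libraries, no positions at 40% or more, target base only, every spanning gene and the overall odds ratio. The values and sequence of 1 single position are not reported here.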

Additional observations from a re-analysis of the deposited data

How the results depend on the processing

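No paired analysis was possible because each construct had 1 library. Against the overall odds ratio, members called higher and lower with the 7 aa APOBEC1 fusion became 0 and 5, over whole genes and in 3′ UTRs alike, those lower with 74 aa became 2 and 2, and HNRNPA3 with 7 aa ADARcd became 0 and 0; single positions became 2 lower with 7 aa and 0 with 74 aa. With 52 aa, 1 member (HNRNPUL1) was called higher in 3′ UTRs with at least 10 reads in all 5 libraries, and 1 over whole genes and 1 in 3′ UTRs without positions at 2 edited reads, an alternative chosen after seeing the data. At an unadjusted one-sided p up to 0.05, 7, 1 and 5 member positions were higher with 7, 27 and 52 aa APOBEC1 (3.05%, 1.51% and 1.22% of all positions) and 1 with 74 aa ADARcd (4.41%).

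As a median over genes with at least 20 reads, HNRNP ratios to GFP with APOBEC1 were 1.45, 1.14, 1.07 and 0.107 over whole genes and 1.50, 1.14 and 1.09 in 3′ UTRs (7, 27, 52 and, over whole genes, 74 aa), so the 27 and 52 aa ratios passed from below to above 1, and SRSF ratios with 27 and 52 aa were 0.267 and 0.196 in both. Without SRSF9 the SRSF ratios with 7, 27 and 52 aa were 0.465, 0.274 and 0.357 over whole genes and 0.473, 0.278 and 0.361 in 3′ UTRs. With ADARcd the HNRNP ratio was 0.539 with 7 aa over all positions, 1.67 and 2.07 with 27 and 47 aa without HNRNPA3, and its median was 0 with 47 and 74 aa, as was the SRSF median with 7, 27 and 47 aa. The cause of these changes was not tested. Of values for single members under an alternative, 605 kept their direction and side of the threshold, 22 lost a call, 9 gained one and none changed direction. Depth limits a single position: a count of 0 allows up to 15.8% at the HNRNPA3 position, and each library stands alone, so no spread between cultures is known.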
